A study of Mus musculus with 14 samples.

Results

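Atrial cardiomyocyte genes were followed through the heart libraries of a study of Fhl2, a LIM-domain protein of the sarcomere and nucleus. The set consists of 8 genes of atrial muscle, Myl7, Myl4, Sln, Bmp10, Dkk3, Kcnj3, Kcnj5 and Gja5, out of 33459 gene identifiers in the count table. The genes were taken by symbol and were chosen by their CPM levels in these same heart libraries, which were known to differ between title numbers 1 and 2 and numbers 3 and 4, so the difference between the numbered libraries described here is given without a test. All mice, controls included, were of the C57BL/6 strain, had an age of 21 weeks and were on high-fat feed for the last 8 weeks, and they were either WT or FHL2-/- (titled FHL2KO, written KO here). Heart mRNA came from 4 WT and 4 KO samples with title numbers 1 to 4, and gonadal white adipose tissue (gWAT) from 3 WT and 3 KO samples with numbers 1, 3 and 4. The labels give neither the chambers of the heart that were taken nor the meaning of the numbers, and nothing says that the samples of a group came from separate mice, so p-values measure only the spread between these samples.

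Heart libraries held 10835092 to 13272412 counts and gWAT libraries 15105019 to 16040188. Levels are given in CPM, read counts divided by the library size, after the sizes were scaled within each tissue by TMM (trimmed mean of M values). The genotype labels were checked on Fhl2, which was at 1195 ± 180 CPM in WT hearts and 33.9 ± 3.86 CPM in KO hearts (SD, n = 4 each; log2 fold change −5.14 ± 0.14 SE, edgeR adjusted p = 1.995e-08). The tissue label was checked on Myh6, the main myosin heavy chain of the adult mouse heart, at 9699 to 12700 CPM in heart and 3.38 to 5.97 CPM in gWAT.

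Atrial and ventricular muscle share most of their contractile proteins but differ in a set of isoforms and signals. Atrial cells build their thick filaments with the light chains Myl7 and Myl4, restrain the calcium pump of the sarcoplasmic reticulum with sarcolipin (Sln), slow their beat through acetylcholine-gated potassium channels made of Kcnj3 and Kcnj5, and couple through the gap junction protein connexin 40 (Gja5). The right atrium is also known as the main adult source of the circulating ligand Bmp10, and Dkk3 encodes a secreted protein of the Dickkopf family.

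The starts of 3 genes and a coding sequence are shown because these genes stand for the different behaviours described here: a light chain that nearly vanished from some hearts, a ligand that was low in a library where the light chains were high, a channel subunit that differed much less between libraries, and a peptide so short that its whole reading frame can be read. Promoter sequences are from RefSeq on GRCm38.p6, from 250 bases before the start of the gene to 50 after it, written 5′ to 3′ on the strand of the gene. RefSeq entries were matched for 6 of the 8 genes, all but Sln and Dkk3. Capitals in the promoters mark a match to a searched motif, and capitals in the Sln coding sequence, from GENCODE M21 on GRCm38, mark the start and stop codons of its 31 codons. The windows are chr11:5898733-5899032 (minus strand) for Myl7, chr6:87428744-87429043 (plus) for Bmp10, chr2:55435720-55436019 (plus) for Kcnj3 and chr9:53853473-53853568 (plus) for Sln.
Myl7 promoter: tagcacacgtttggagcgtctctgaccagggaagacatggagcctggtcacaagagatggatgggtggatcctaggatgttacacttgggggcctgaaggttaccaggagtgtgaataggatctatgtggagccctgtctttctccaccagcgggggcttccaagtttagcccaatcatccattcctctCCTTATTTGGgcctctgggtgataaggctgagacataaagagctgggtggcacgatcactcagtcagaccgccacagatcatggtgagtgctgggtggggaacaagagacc
Bmp10 promoter: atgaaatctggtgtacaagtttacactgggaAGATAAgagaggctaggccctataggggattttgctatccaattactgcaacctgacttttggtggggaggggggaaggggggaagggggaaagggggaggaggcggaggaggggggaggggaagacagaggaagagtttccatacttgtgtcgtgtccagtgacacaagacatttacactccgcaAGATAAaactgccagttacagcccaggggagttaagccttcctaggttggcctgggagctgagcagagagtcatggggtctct
Kcnj3 promoter: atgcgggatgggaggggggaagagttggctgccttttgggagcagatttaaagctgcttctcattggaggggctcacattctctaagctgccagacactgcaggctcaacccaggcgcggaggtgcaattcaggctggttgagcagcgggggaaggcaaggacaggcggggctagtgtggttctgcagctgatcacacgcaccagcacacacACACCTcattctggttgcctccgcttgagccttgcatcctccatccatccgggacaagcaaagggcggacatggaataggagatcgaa
Sln coding sequence: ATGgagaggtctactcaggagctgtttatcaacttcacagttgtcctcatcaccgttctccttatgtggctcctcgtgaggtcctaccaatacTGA

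Motifs of heart transcription factors were searched on both strands. They were the T-box core (AGGTGT) read by Tbx5, the GATA site (AGATAA) read by Gata4, the NKX2-5 site (TNAAGTG), and the half-site of nuclear receptors such as Nr2f1 and Nr2f2 (AGGTCA). The TATA box (TATAAA), the CArG box bound by serum response factor and the MEF2 site were searched as well, the last pair by their usual consensus. In the Myl7 window a CArG box, CCTTATTTGG, stood at −61 to −52 from the start. It matches the consensus on both strands, and 1.63% of the 32851 promoters of this length held such a box. The Bmp10 window held AGATAA at −219 to −214 and again at −33 to −28, a motif in 11.2% of promoters. In the Kcnj3 window the reverse complement of the T-box core, ACACCT, stood at −38 to −33, and 13.7% of promoters held the core on either strand. The Gja5 window, chr3:97032152-97032451, is at the RefSeq start and lies inside the longer span that GENCODE gives the gene. The windows of Myl4, Kcnj5 and Gja5 held none of these motifs, and 0 of the 6 windows held the NKX2-5 site, the nuclear receptor half-site, the TATA box or the MEF2 site (in 11.5%, 16.3%, 13.6% and 0.557% of promoters). These matches describe letters in the windows and say nothing of binding.

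Across the heart libraries the atrial genes were high in numbers 1 and 2 of both genotypes and lower in numbers 3 and 4. For 7 of the 8 genes all 4 libraries numbered 1 or 2 lay above all 4 numbered 3 or 4, where 7.04% of the 14159 genes tested in heart did so. Because the genes were chosen with this difference known, nothing is read from that contrast. Their median log2 difference was 3.16, against −0.01 for all genes tested. The set fell into 2 blocks by size: Myl7, Myl4, Sln, Dkk3 and Bmp10 differed by 2.85 to 4.39 log2 units, and Kcnj3, Kcnj5 and Gja5 by 0.47 to 1.02. In bulk tissue, fewer cells of a type and less RNA per cell cannot be told apart.

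**Figure D1:**
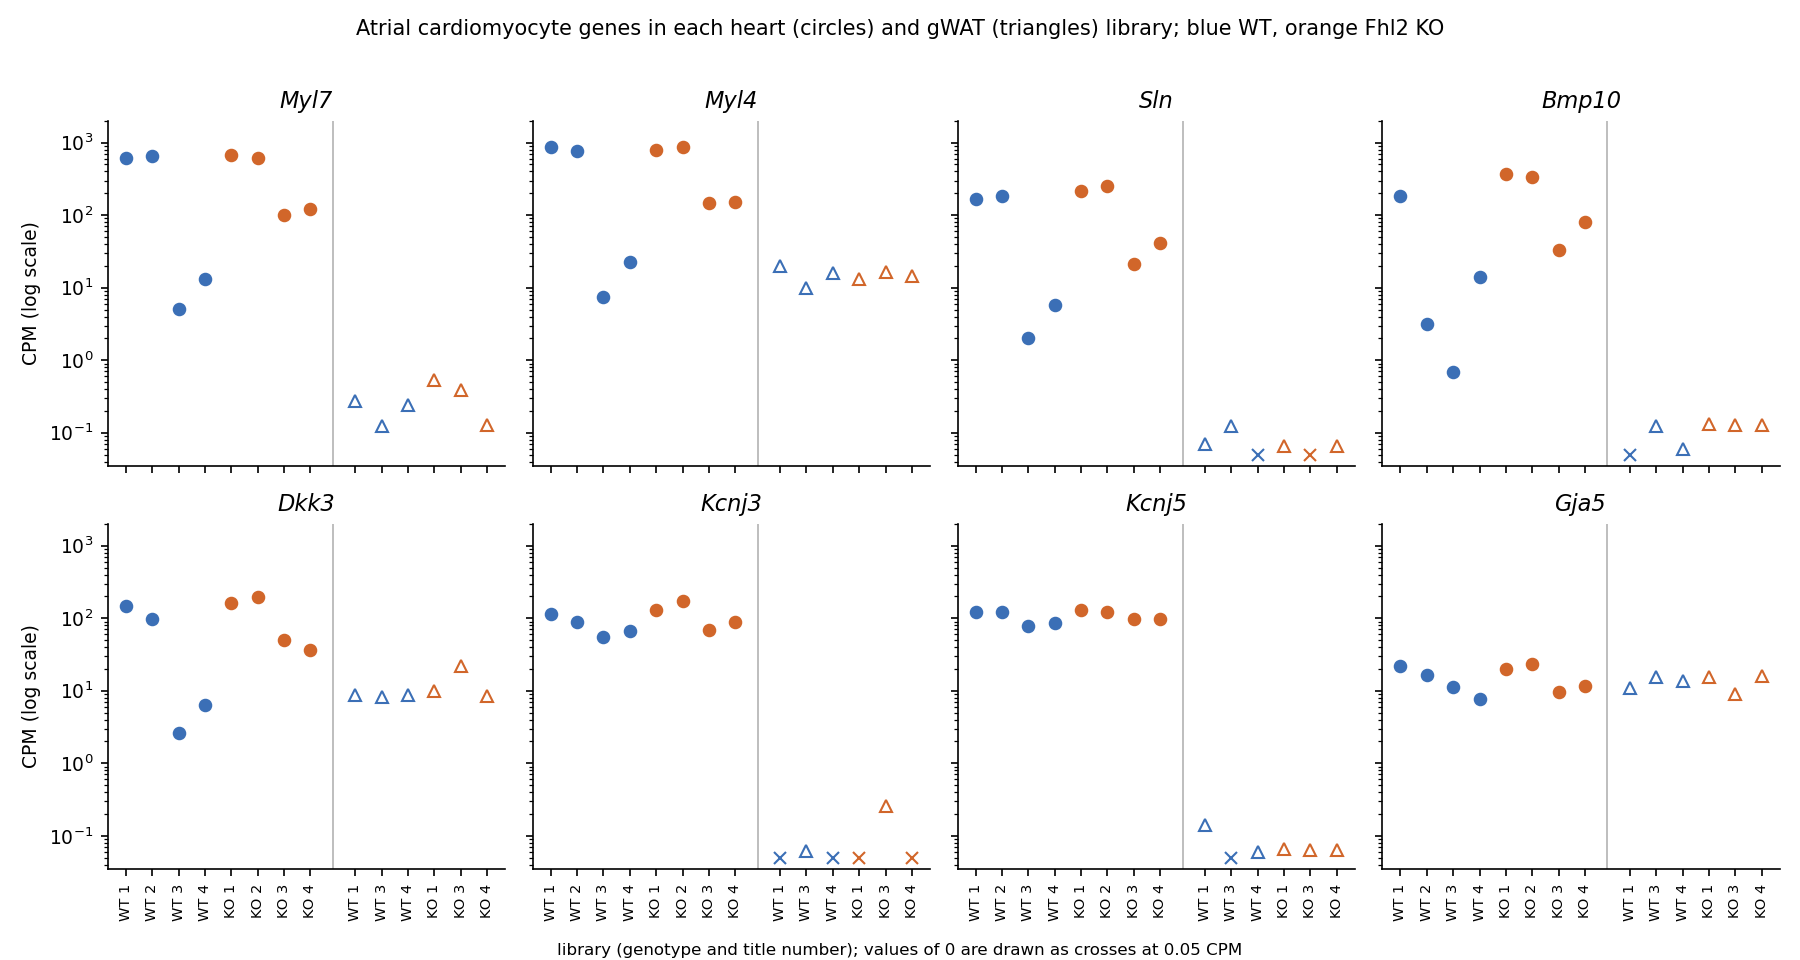
CPM on a log axis of each of the 8 atrial genes in every library, heart as circles and gWAT as triangles, WT in blue and KO in orange, with values of 0 drawn as crosses at 0.05. Myl7 is at 607.5 to 666.1 CPM in the heart libraries numbered 1 and 2 and at 5.03 to 121.8 CPM in those numbered 3 and 4, while Kcnj5 stays between 76.9 and 129.1 CPM in all 8.

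The myosin light chains gave the highest levels of the set. Myl7 encodes the atrial regulatory light chain and lies at chr11:5896637-5898782 (minus strand), with only 590 exon bases. Its levels were 607.5, 647.1, 5.03 and 13.2 CPM in WT 1 to 4 and 666.1, 611.6, 100.8 and 121.8 CPM in KO 1 to 4. The sets numbered 1 and 2 and numbered 3 and 4 did not overlap, and within the second set both KO libraries were above both WT libraries. WT 3 held 58 Myl7 reads, an exact binomial 95% interval of 3.82 to 6.50 CPM, which covers counting error only, as do all such intervals here. Number 1 and 2 libraries were 68.9-fold above 3 and 4 in WT and 5.74-fold in KO. Myl7 ranked 2 of 14159 genes by this difference.

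Myl4, the atrial essential light chain at chr11:104550663-104595753 (plus strand), followed Myl7 most closely. It was at 865.0, 774.5, 7.46 and 22.6 CPM in WT 1 to 4 and at 796.5, 883.6, 147.7 and 153.9 CPM in KO 1 to 4. Again WT 3 and WT 4 were lowest, KO 3 and KO 4 were between, and the 4 libraries numbered 1 or 2 were within 1.14-fold of each other. The log2 ratio of Myl7 to Myl4 counts had an SD of 0.18 over the 8 libraries, the smallest of any pair of the set. Myl4 overlaps the exons of Gm22000 on the opposite strand, which held 15 counts in all heart libraries.

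Sarcolipin is a short membrane peptide that lowers the calcium affinity of the SERCA pump. Sln (chr9:53850164-53854560, plus strand) was at 164.8, 183.5, 2.00 and 5.69 CPM in WT 1 to 4, the second pair resting on 23 and 67 reads. In KO 1 to 4 it was at 215.5, 250.4, 21.2 and 41.9 CPM. Its order over the libraries was that of the light chains at the low end, with WT 3 lowest and WT 4 next, and the sets did not overlap. The number 1 and 2 libraries stood 45.3-fold above 3 and 4 in WT and 7.38-fold in KO.

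Dkk3, at chr7:112116017-112159057 (minus strand), was at 147.4, 98.3, 2.60 and 6.29 CPM in WT 1 to 4. Its KO levels were 162.9, 197.2, 50.1 and 36.5 CPM. The same 3 tiers appeared, with WT 3 and 4 lowest, but the spread in numbers 1 and 2 was wider than for the light chains, 2.00-fold from lowest to highest. The number sets differed 27.7-fold in WT and 4.16-fold in KO.

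Bmp10 encodes a ligand of the transforming growth factor beta family that signals through the receptor Acvrl1, and it departed from the pattern most in WT 2. Its log2 ratio to Myl7 was −7.68 there, and elsewhere it ran from −2.78 in WT 3 to 0.10 in WT 4. Bmp10 (chr6:87428994-87437677, plus strand) was at 182.3 CPM in WT 1, 3.12 CPM in WT 2, 0.694 CPM in WT 3 and 14.1 CPM in WT 4. In KO 1 to 4 it was at 372.2, 338.8, 32.6 and 80.2 CPM. WT 2, which matched the other libraries of its set for the light chains, held 41 Bmp10 reads and lay below both WT 4 and the KO libraries numbered 3 and 4, so the number sets overlapped. Bmp10 in WT 2 was 1.71% of its level in WT 1, where the other 7 genes were at 66.7% to 111.4%. The log2 difference of the number sets, 2.85, became 4.31 without WT 2, 1.38 without WT 1, 1.78 without WT 3 and 3.91 without WT 4, and without WT 2 all 8 genes had sets that did not overlap.

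The potassium channel subunits, which assemble into the channel opened by muscarinic M2 and adenosine A1 receptors, varied far less. Kcnj3 (chr2:55435970-55598145, plus strand) was at 113.8, 88.3, 55.2 and 65.7 CPM in WT 1 to 4 and at 128.5, 174.0, 67.8 and 88.1 CPM in KO 1 to 4. The sets came close to touching, with WT 2 at 88.3 CPM and KO 4 at 88.1 CPM. Kcnj5 (chr9:32314707-32344350, minus strand) was at 121.0, 121.6, 76.9 and 85.5 CPM in WT and at 129.1, 121.8, 96.2 and 98.6 CPM in KO. Its sets were apart, and the 4 libraries numbered 1 or 2 differed by only 1.07-fold. The number sets differed 1.67-fold and 1.94-fold for Kcnj3 in WT and KO, and 1.49-fold and 1.29-fold for Kcnj5. Kcnj3 shares exon sequence with the antisense transcript Gm26794, which held 55 heart counts, and whether the counting used strand is unknown here.

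Connexin 40 joins atrial muscle cells, cells of the ventricular conduction system and arterial endothelium, so Gja5 is not restricted to atrial muscle. Gja5 (chr3:96904693-97077416, plus strand) was at 21.9, 16.2, 11.2 and 7.65 CPM in WT 1 to 4. In KO 1 to 4 it was at 19.8, 23.5, 9.66 and 11.6 CPM. The sets did not overlap, and the ratio between them was nearly alike in WT (2.02-fold) and KO (2.03-fold). Its exons overlap those of Gpr89 on the opposite strand, with 1699 heart counts against 1513 for Gja5 itself. Of the 50-base stretches in Gja5 transcripts, 15.3% also occur in other genes, Zfp697 in the same orientation and Gpr89 in the opposite one. The Gja5 values are therefore uncertain.

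**Figure D2:**
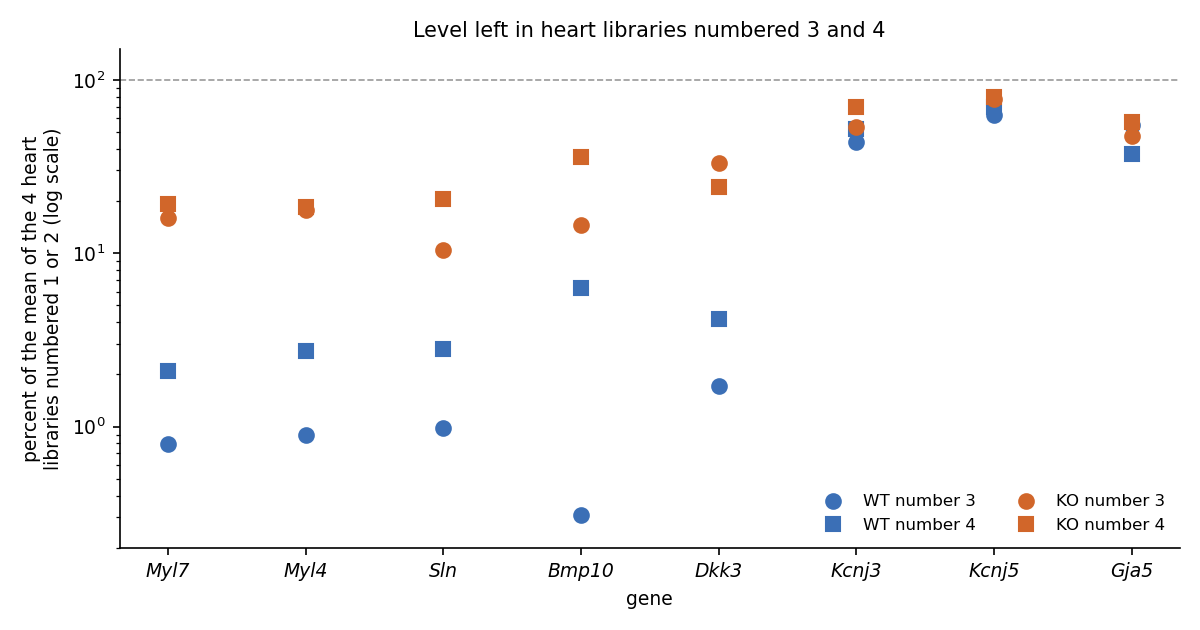
Level of each atrial gene in the 4 heart libraries numbered 3 or 4 as a percent of its mean over the 4 libraries numbered 1 or 2 (log axis; WT blue, KO orange; number 3 as circles, number 4 as squares; dashed line at 100%). Myl7, Myl4 and Sln keep 0.795% to 2.80% in WT and 10.4% to 20.6% in KO, and Kcnj5 keeps 62.4% to 79.9% in all 4.

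What was left in numbers 3 and 4 therefore differed between members. As a share of the mean over numbers 1 and 2, Myl7 kept 0.795% in WT 3 and 2.08% in WT 4, and 15.9% and 19.2% in KO 3 and KO 4. Myl4 kept 0.899% and 2.72% in WT and 17.8% and 18.5% in KO. Dkk3 kept more than either in every library, with 1.72% and 4.15% in WT and 33.1% and 24.1% in KO. Kcnj3 kept 43.7% to 69.8%, Kcnj5 62.4% to 79.9% and Gja5 37.6% to 57.2%, with WT and KO libraries interleaved only for Gja5. The 380 genes at least 2-fold higher in numbers 1 and 2 made up 2.68% of those tested, and 27 genes (0.191%) were at least 2-fold lower. By rank of the difference, Sln was at 3, Myl4 at 4, Dkk3 at 13, Bmp10 at 33, Gja5 at 365, Kcnj3 at 492 and Kcnj5 at 1073.

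Ratios within a library, which need no library size, held tightly inside 2 groups of members, Myl7, Myl4, Sln and Dkk3, and Kcnj3, Kcnj5 and Gja5, with Bmp10 outside both. Myl4 to Sln had an SD of 0.34 log2 units over the 8 libraries and Myl7 to Dkk3 of 0.62. Kcnj3 to Gja5 had an SD of 0.29, Kcnj3 to Kcnj5 of 0.34 and Kcnj5 to Gja5 of 0.39, inside the first group's range of 0.18 to 0.64. The channel subunits and Gja5 varied less over the libraries than the first group, so small SDs of their ratios do not show kept proportions. Between Bmp10 and the first group the SDs were 2.14 (to Dkk3), 2.36 (Sln), 2.37 (Myl4) and 2.45 (Myl7), as wide as between the groups, where Dkk3 to Kcnj3 had 1.85. The ratio of Myl7 to Kcnj5 ran from −3.92 to 2.41, with an SD of 2.50. The widest pair was Bmp10 to Kcnj5 (SD 3.08), with its lowest ratio of −6.71 in WT 3. The libraries of these ratios share depth and preparation, and no test was made of them.

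**Figure D3:**
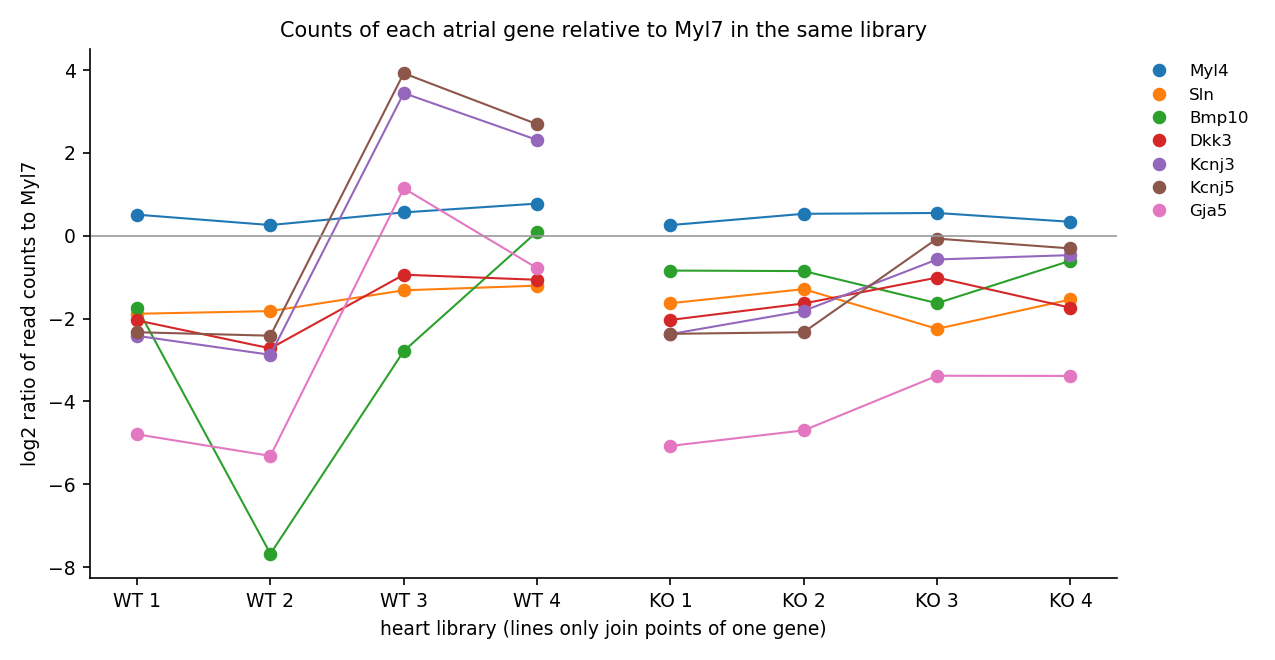
Log2 ratio of the reads of each atrial gene to the reads of Myl7 in the same heart library, with lines joining the points of a gene only. Myl4 stays between 0.26 and 0.78 in all 8 libraries, Kcnj5 reaches 3.92 in WT 3, and Bmp10 is at −7.68 in WT 2.

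Per kilobase of exon, Myl7 stood above all other members in every library numbered 1 or 2, at 1030 to 1129 CPM per kb. Myl4 followed at 167.0 to 190.5 and Sln at 125.0 to 190.0 CPM per kb, ranges that overlap. Bmp10 spanned 0.696 to 82.9 CPM per kb, Dkk3 29.3 to 58.7, Kcnj3 16.9 to 33.4, Kcnj5 25.8 to 27.6 and Gja5 2.82 to 4.10. In numbers 3 and 4 the order was no longer fixed: Myl7 spanned 8.53 to 206.4 CPM per kb, and Kcnj5, at 16.4 to 21.0, lay above Myl7 in WT 3. Gja5, at 1.33 to 2.03 CPM per kb, was the lowest member in WT 4, KO 3 and KO 4, but in WT 3 Bmp10 (0.155), Dkk3 (0.775), Sln (1.51) and Myl4 (1.61 CPM per kb) lay under it.

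gWAT gave the background. Fat pads hold no heart muscle, and Myl7 had 26 reads in the 6 gWAT libraries together (0.124 to 0.527 CPM), Sln 5, Bmp10 9, Kcnj3 5 and Kcnj5 6. Against levels scaled separately in the heart, the lowest Myl7 value there, 5.03 CPM in WT 3, and the lowest Bmp10 value, 0.694 CPM, were above every gWAT library. Myl4, Dkk3 and Gja5 had a clear level in fat. Myl4 was at 9.81 to 19.6 CPM in gWAT, above the 7.46 CPM of heart WT 3. Dkk3 was at 8.19 to 9.94 CPM in 5 gWAT libraries and at 21.8 CPM in KO 3, all above the 2.60 and 6.29 CPM of heart WT 3 and WT 4. Gja5 was at 8.98 to 15.8 CPM in gWAT and 7.65 to 11.6 CPM in hearts numbered 3 and 4, ranges that overlap.

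Loss of Fhl2 was compared with WT over all 8 heart libraries. No member passed: 0 of 8 were called, where 1 of 14159 genes (0.00706%) was, and that gene was Fhl2. All 8 members had a higher mean in KO, where the median log2 fold change of all genes tested was −0.003. The members were read in the same libraries and several moved together, so their signs are not separate results. Myl7, Myl4 and Gja5 turned negative when some single libraries were left out. None of the members had groups that did not overlap, against 1.25% of genes with all KO libraries higher and 1.13% with all KO libraries lower. Myl7 averaged 318.2 ± 357.3 CPM in WT hearts and 375.1 ± 305.5 CPM in KO hearts (SD, n = 4), a log2 fold change of 0.23 ± 1.16 SE (edgeR adjusted p = 0.9997). Bmp10 had the widest difference of the set, 50.05 ± 88.3 against 206.0 ± 174.3 CPM (2.03 ± 1.22, adjusted p = 0.9997). Its log2 fold change was 5.11 without WT 1 and 1.57 to 2.39 without any other single library. Kcnj5 was the tightest, 101.2 ± 23.4 against 111.4 ± 16.5 CPM (0.14 ± 0.16). The remaining values were 0.24 ± 1.14 for Myl4, 0.56 ± 1.10 for Sln, 0.80 ± 0.95 for Dkk3, 0.50 ± 0.29 for Kcnj3 and 0.17 ± 0.34 for Gja5, each with an adjusted p of 0.9997. Leaving out 1 library each gave 0.055 to 1.18 for Sln, 0.38 to 1.63 for Dkk3, 0.23 to 0.72 for Kcnj3 and 0.024 to 0.24 for Kcnj5. In this fit 0 of the members had an unadjusted edgeR p under 0.05, where 453 of 14159 genes did.

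Standard errors were 0.95 to 1.22 log2 units for Myl7, Myl4, Sln, Bmp10 and Dkk3, the 5 genes that differed most between the number sets, so the genotypes were also compared inside each set. In numbers 1 and 2 the light chains were level, with log2 fold changes of 0.03 ± 0.11 for Myl7 and 0.04 ± 0.11 for Myl4. Sln was at 0.42 ± 0.12, Kcnj3 at 0.58 ± 0.17 and Dkk3 at 0.55 ± 0.18, and 0 of 8 members passed (1 of 14453 genes, 0.00692%). In numbers 3 and 4 the calls were 4 of the 8: Myl7 (3.61 ± 0.27, edgeR adjusted p = 0.000846), Dkk3 (3.28 ± 0.27, 0.00136), Myl4 (3.33 ± 0.31, 0.00327) and Sln (3.03 ± 0.39, 0.0305) were higher in KO. In all, 17 of 14081 genes were called there, 16 of them higher in KO (0.114%). Bmp10 (2.92 ± 0.65, adjusted p = 0.251), Kcnj3 (0.37 ± 0.13), Kcnj5 (0.26 ± 0.09) and Gja5 (0.18 ± 0.20) did not pass. Red cell genes and most epicardial genes were also higher in KO within numbers 3 and 4, though none passed there. Endothelial genes were mixed, with Pecam1 at 0.10, Cdh5 at −0.17, Kdr at 0.03, Emcn at 0.18, Vwf at 0.57 and Npr3 at 0.71. The red cell genes Hba-a1, Hba-a2, Hbb-bs and Alas2 had log2 fold changes of 2.09, 2.17, 2.05 and 2.23, with sums of 142.9 to 427.5 CPM in WT and 765.8 to 1631 CPM in KO. Of the epicardial genes, Upk3b was at 0.92, Upk1b at 1.08, Msln at 0.81, Krt19 at 1.06 and Wt1 at −0.04. The epicardial sums were 32.6 to 36.1 CPM in WT, 37.8 CPM in KO 3 and 74.4 CPM in KO 4, so their rise lay mostly in KO 4. The part of these genes in the result was not tested. The genes were picked with these libraries' values known and each genotype has only 2 libraries in a number set, so the calls are given as a description. With a term for the number set in the fit of all 8 libraries, 0 of 8 members passed (2 of 14159 genes, 0.0141%), with Myl7 at 1.52 ± 0.55 and Bmp10 at 2.31 ± 0.76. Unadjusted edgeR p in that fit was 0.0017 to 0.016 for Kcnj3, Dkk3, Sln, Bmp10, Myl4 and Myl7. It was 0.051 for Kcnj5 and 0.22 for Gja5, and 804 of the 14159 genes were under 0.05. Whether the genotype effect differs between the number sets was not tested.

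**Figure D4:**
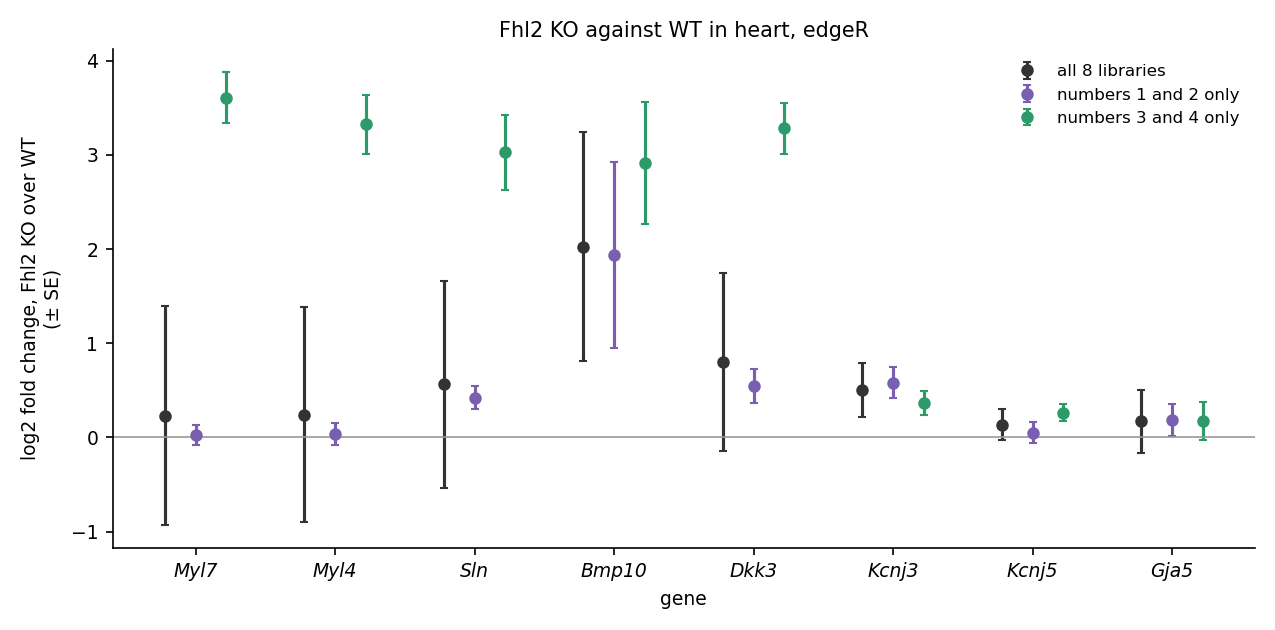
Log2 fold change of KO over WT (± SE, edgeR) for each atrial gene in heart, over all 8 libraries (black), numbers 1 and 2 only (purple) and numbers 3 and 4 only (green). Myl7, Myl4, Sln and Dkk3 lie between 3.03 and 3.61 in numbers 3 and 4 and between 0.03 and 0.55 in numbers 1 and 2.

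The other genes called in numbers 3 and 4 were mostly ones that also split the number sets. Besides the 4 members and Fhl2, which was lower in KO, they included Fmod, Mybphl, Pkhd1l1, Nppa, Myh7, Cacna1h, Pam, Tmem163, Rxfp1, Sbk3 and Igfbp5, named because the count is small after their values were seen. Of the 16 higher genes, 15 had number sets that did not overlap, higher in 1 and 2, against 7.04% of the 14159 genes tested over all 8 libraries. The 16 include the 4 members, which were chosen with that split known, so the count is given as a description. Myh7, the slow myosin heavy chain, was the exception, at 123.8 and 100.6 CPM in WT 3 and 4 and 281.1 and 201.5 CPM in KO 3 and 4 (1.11 ± 0.15, edgeR adjusted p = 0.0364). Its levels in numbers 1 and 2 were 137.8 and 197.5 CPM in WT and 134.3 and 156.6 CPM in KO.

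Atrial genes outside the set showed a mixed picture. Of a list of 12, 11 passed the filter, and 7 of these had number sets that did not overlap, all higher in 1 and 2, with a median difference of 1.74 over the 11. Nppa, the atrial natriuretic peptide, was at 1964, 1534, 74.8 and 68.7 CPM in WT 1 to 4 and 1998, 2355, 208.9 and 491.9 CPM in KO 1 to 4. Mybphl, a myosin-binding protein, had the greatest difference of the list (4.54), with 0.347 and 1.70 CPM in WT 3 and 4. Fgf12 differed by 3.99, Sbk2 by 2.33, Stard10 by 2.15, Pam, which amidates peptide hormones, by 1.74 and the transcription factor Tbx5 by 0.77. Nr2f2 (0.36) and Nr2f1 (0.24), which encode COUP transcription factors of atrial identity, overlapped, as did the potassium channels Kcna5 (−0.26) and Kcnk3 (0.03). For KO against WT 0 of the 11 passed over all 8 libraries.

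**Figure D5:**
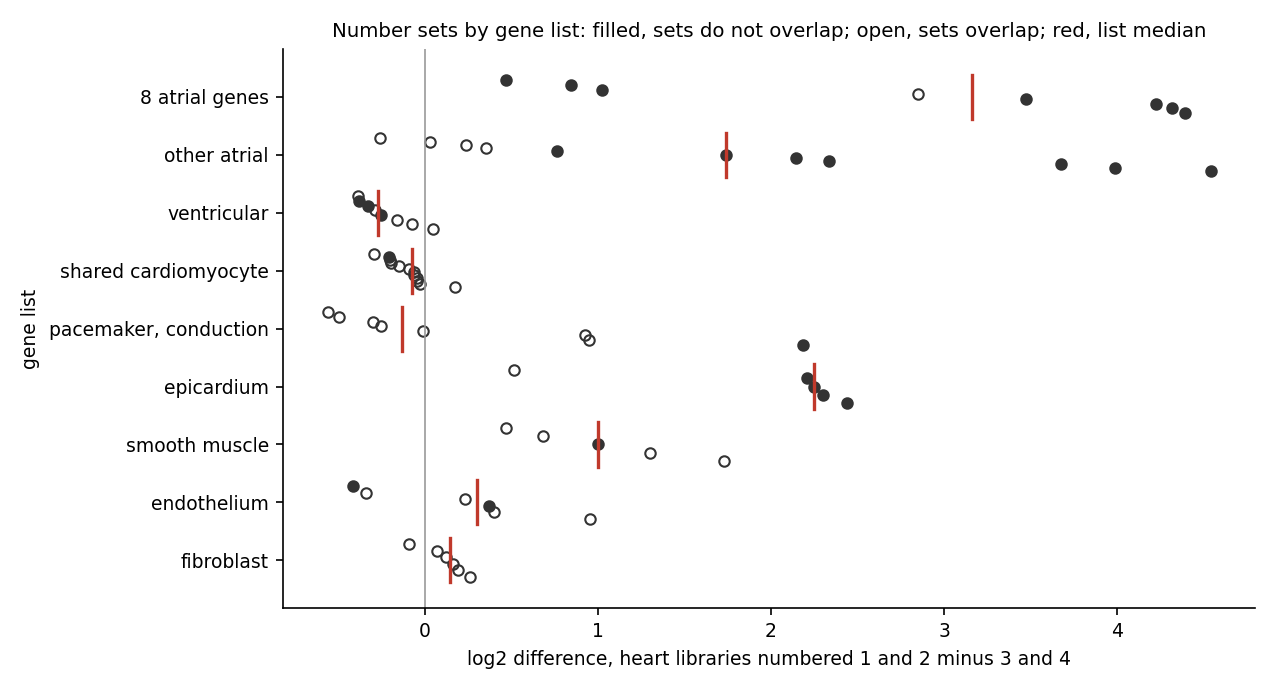
Log2 difference between heart libraries numbered 1 and 2 and those numbered 3 and 4 for the genes of 9 lists (filled, sets do not overlap; open, sets overlap; red bar, list median). The 8 atrial genes have a median of 3.16 and the ventricular genes of −0.27, and 4 of 5 epicardial genes lie between 2.21 and 2.44.

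Markers of other heart cells were read in the same way, beside 7.04% of all genes with sets apart and higher in 1 and 2 and 5.93% apart and lower. Ventricular genes had a median of −0.27: Myl3, the ventricular essential light chain (−0.33), Pln, phospholamban (−0.38), and Kcnip2 (−0.25) had sets apart and lower in numbers 1 and 2, and Myl2 (−0.29), Irx4, Hey2, Kcnd2 and Myh7 overlapped. Summed over the 8 ventricular genes, levels were 11670 to 12280 CPM in WT and 12040 to 12680 CPM in KO for numbers 1 and 2, and 15220 to 15800 and 13910 to 16000 CPM for 3 and 4. Genes of all cardiomyocytes, such as Myh6 (−0.02), Actc1 (−0.06) and Tnnt2 (−0.04), had a median of −0.07, and 1 of 12, Mef2c, had sets apart, lower in 1 and 2. Under library totals without scaling factors the median of all genes moved from −0.01 to 0.12, and Myh6, Actc1 and Tnnt2 turned to 0.11, 0.07 and 0.09. The 3 ventricular genes stayed negative there, at −0.12 to −0.25. With the totals 2135 genes had sets apart and higher and 201 lower, against 997 and 839 with TMM, and 7 members were apart and higher under both scalings and under RLE (relative log expression).

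Most epicardial markers split by number set as the atrial genes did, but KO 3 did not stand clear of WT 3 and 4. Of 5, 4 had sets apart and higher in numbers 1 and 2, Upk3b (2.30), Upk1b (2.21), Msln (2.25) and Krt19 (2.44), and Wt1 (0.52) overlapped. Their sums were 172.4 to 214.5 CPM in WT 1 and 2 and 32.6 to 36.1 CPM in WT 3 and 4. In KO the sums were 142.6 to 170.2 CPM in numbers 1 and 2, 37.8 CPM in KO 3 and 74.4 CPM in KO 4. Krt19 and Msln in KO 3, at 2.45 and 6.73 CPM, lay between their WT 3 and WT 4 levels. Wt1 in KO 3 lay below both, and Upk3b and Upk1b lay above both. Myl7 was at 100.8 CPM in KO 3 against 5.03 and 13.2 CPM in WT 3 and 4. Smooth muscle genes had a median of 1.004 with 1 of 5, Eln, apart, and summed to 224.9 to 447.3 CPM in WT 1 and 2 and 164.7 to 197.4 CPM in WT 3 and 4. In KO the smooth muscle sums were 292.0 to 461.6 CPM and 233.0 to 236.4 CPM. The TMM factors were 1.03 to 1.06 in numbers 1 and 2 and 0.914 to 1.002 in numbers 3 and 4. The part of these in the differences of the atrial genes was not tested.

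Endothelial genes had a median of 0.30, with Pecam1 apart and higher (0.37) and Kdr apart and lower (−0.41) among 6, and sums of 1085 to 1301 CPM in numbers 1 and 2 and 1043 to 1222 CPM in 3 and 4. Genes of arterial endothelium, which also holds Gja5, had a median of 0.04, with 1 of 5, Dll4, apart and lower. Fibroblast genes had a median of 0.14 and 0 of 6 apart. Of 9 genes of the pacemaker and conduction system, 8 passed the filter, with a median of −0.13. Skeletal muscle (0 of 2 tested apart), red cell (0 of 4), thymus (0 of 1), cardiac ganglia (0 of 1) and white adipocyte genes (0 of 5) had no sets apart, and of 4 tested brown fat genes Cidea alone was apart, lower. The lung genes Sftpc, Sftpa1 and Scgb1a1 were at 0 in all 8 heart libraries.

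Genes that act with the members were taken from lists of each pathway. Around the potassium channel, Gnao1, a G protein alpha subunit, was apart and higher in numbers 1 and 2 (0.76) and Rgs4, which shortens G protein signals, apart and lower (−0.55). Chrm2, the muscarinic M2 receptor, at 112.6 to 158.5 against 98.9 to 113.2 CPM, overlapped, and the median of the 7 genes was 0.14. Around sarcolipin, the pump Atp2a2 itself (−0.08), the release channel Ryr2 (−0.10) and Casq2 (−0.09) overlapped, and of the 4 genes with a match only Pln was apart. The signs of these 3 turned under library totals, to 0.05, 0.03 and 0.04. Among connexins, Gja1, connexin 43 of the working ventricle, was lower in numbers 1 and 2 (182.6 to 242.5 CPM against 254.2 to 291.2 CPM; −0.41, or −0.28 with library totals), and Gja4 (0.25) and Gjc1 (−0.25) overlapped.

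Of 11 genes of Bmp10 signalling, 5 were apart and higher in numbers 1 and 2, where 7.04% of all genes tested were. They were the co-receptor Eng (0.39), the related ligand Gdf2 (2.60, at most 2.33 CPM), the inhibitory Smad6 (0.95), and the targets Id2 (1.10) and Id3 (0.45). Acvr2a was apart and lower (−0.31). The receptors Acvrl1 (0.01), Bmpr2 (0.09) and Acvr2b (−0.01), the target Id1 (0.32) and the inhibitory Smad7 (0.28) overlapped. In WT 2, where Bmp10 was at 3.12 CPM, Smad6 was at 12.95 CPM against 17.3 in WT 1, and Id2 at 17.4 against 14.85 CPM. For KO against WT 0 genes passed in any of these lists over all 8 libraries.

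The 10 genes with profiles most like the mean of the members were found by the root-mean-square (RMS) difference of centred log2 CPM over the 8 heart libraries, among 12278 genes with a mean of at least 1 CPM. Cilp2, a matrix protein, was closest (RMS 0.34), followed by the kinase Sbk3 (0.42), the calcium pump Atp2b2 (0.47), the matrix protein Fras1 (0.49), Rp1 (0.54), Sphkap (0.54), the calcium channel subunit Cacna2d3 (0.60), the kinase Sbk2 (0.60), Ppp1r1b (0.62) and Lmntd1 (0.64). Sbk3 was at 103.9, 64.3, 5.99 and 7.14 CPM in WT 1 to 4 and 129.8, 148.6, 16.1 and 28.6 CPM in KO 1 to 4. The other 9 were at most 31.4 CPM in every heart library. The members' own distances from their mean ran from 0.58 for Dkk3 to 1.94 for Bmp10, with Kcnj5 at 1.40.

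In gWAT, KO against WT could be tested for the 3 members that passed the filter there. Dkk3 averaged 8.49 ± 0.262 CPM in the WT samples and 13.4 ± 7.31 CPM in the KO samples (SD, n = 3; log2 fold change 0.66 ± 0.33 SE, edgeR adjusted p = 0.283). KO 3 was at 21.8 CPM, and the other KO libraries, at 9.94 and 8.47 CPM, were close to the 8.19 to 8.67 CPM of WT. Myl4 was at 15.2 ± 4.98 and 14.6 ± 1.56 CPM (−0.05 ± 0.23, adjusted p = 0.917) and Gja5 at 13.3 ± 2.28 and 13.4 ± 3.86 CPM (0.01 ± 0.23, adjusted p = 0.991). The 3 did not pass, where 834 of 15200 genes (5.49%) did.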

How the data were processed

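The authors deposited a table of raw read counts per Ensembl gene, whole numbers with 1 column for each of the 14 libraries and 0 columns without a sample. Per the labels' protocols, tissue was flash frozen, RNA extracted with Trizol and libraries made with the Kapa mRNA HyperPrep kit. Per the submitters' processing notes, the build is mm10 and the tools include HISAT2 2.1.0, HTSeq 0.11.0 and Trimmomatic 0.32, beside Picard, FastQC and limma. Which annotation release was used, and whether the counting used strand, is not given in the sources used here, so genes with exons on both strands (Gja5, Kcnj3) are uncertain. Coordinates and exon lengths are from GENCODE M21 on GRCm38.

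Each tissue was filtered (filterByExpr, by group), scaled by TMM and tested for KO against WT with the edgeR 4.0.16 quasi-likelihood F test in R 4.3.3, with Benjamini-Hochberg adjustment over all genes tested and a threshold of 0.05. All 8 members passed the filter in heart and 3 in gWAT. edgeR's biological coefficients of variation were 0.149 (heart) and 0.168 (gWAT). The number sets (title numbers 1 and 2 against 3 and 4) were described by the difference of mean log2 CPM (prior count 0.5), with genotypes weighted equally and no test. The script was tested on simulated data. Alternatives used DESeq2 1.42.0 and limma 3.58.1, other scalings and filters, a block on the number, and each library left out. Tables and figures used Python 3.11.15, pandas 2.3.3, scipy 1.17.1 and matplotlib 3.10.9.

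Named genes are the members, a list of other atrial genes, up to 4 genes with the highest heart level in each other list, and the 10 genes with the most similar profile. The 5 genes closest to the reversed profile, which the rule also takes, are not reported here, nor are single genes of the lists that the text leaves unnamed. Other genes named from a list, as the ones whose number sets lay apart, were picked with the values in view. The members and lists were chosen with earlier results of these data known.

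The deviations of same-numbered WT and KO hearts from their group means correlated at 0.267, 0.413, 0.414 and 0.308 across genes, each over the 0.1 set for pairing. Different numbers of the same number set correlated alike (WT 1 with KO 2 0.503, WT 2 with KO 1 0.188, WT 3 with KO 4 0.347, WT 4 with KO 3 0.297), so these values do not separate pairing by number from the number sets, and the labels do not say what the numbers mark. In gWAT the values were −0.116, −0.232 and 0.0568, and the numbers were not taken to pair. Within groups the lowest chi-square per degree of freedom between libraries was 3.53, so none was a duplicate.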

Additional observations from a re-analysis of the deposited data

Results flagged for a closer look

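Bmp10 was at 182.3 CPM in WT heart number 1, far above the other WT hearts at 3.12, 0.694 and 14.1 CPM. The gap to the nearest of the other libraries was more than Dixon's 95% critical value allows for 4 samples. Of the 16 groups of 4 heart libraries looked at (8 genes, 2 genotypes), this was the 1 that stood out. The usual rate, about 1 in 20 such groups, assumes that a group is a single normal population. Each group here mixes both number sets, which hides a single outlier in genes that differ strongly between the sets. That rate therefore does not apply. WT numbers 3 and 4 were also low in the other atrial genes, whereas WT number 2 was low in Bmp10 with Myl7 at 647.1 CPM.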

How the results depend on the processing

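The count of called genes in heart, 1, was 3 with no filter beyond 1 count, 2 with DESeq2, 2 with a term for the number set and 17 in numbers 3 and 4 only, and 1 in every fit without 1 library. Used as a replicate block, the number gave 1 called gene and changed no call in heart, while moving Myl7 from 0.23 to 1.55 ± 0.58 (adjusted p = 0.7935), Myl4 to 1.53 and Bmp10 to 3.21. In gWAT the 834 calls became 1600 with no filter, 1769 with DESeq2, 477 with limma-voom and 0 with the block (2922 genes at an unadjusted p under 0.05), and ranged from 0 to 2908 without 1 library each (2908 without WT 1, 132 without WT 3, 0 without any of the others). The genes with number sets apart, 1836, became 7445 in WT only and 5542 in KO only, where fewer libraries must be apart, and 1836 rose to between 2222 and 2808 without 1 library each. KO over WT in heart turned negative for Myl7 without WT 3 (−0.18), WT 4 (−0.17), KO 1 (−0.20) or KO 2 (−0.11), over a leave-one-out range of −0.20 to 0.84. It did so for Myl4 without the same 4 (−0.17, −0.15, −0.09 and −0.19; range −0.19 to 0.88), and for Gja5 without WT 4 (−0.04) or KO 2 (−0.0645; range −0.0645 to 0.46). With limma-voom in heart Myl7 was at 1.88, Myl4 at 1.78, Sln at 1.67, Dkk3 at 1.89 and Bmp10 at 3.82, and over all alternatives Myl7 ranged from −0.20 to 3.61. In gWAT Myl4 turned positive with limma-voom (0.0036) and without WT 1 (0.17) or KO 1 (0.01; range −0.29 to 0.17). Gja5 there turned negative with limma-voom (−0.0297), the block (−0.0158) and without WT 1 (−0.12), KO 1 (−0.11) or KO 4 (−0.12; range −0.12 to 0.23). Over all alternatives the only member values that passed the test were those of Myl7 (3.61), Myl4 (3.33), Dkk3 (3.28) and Sln (3.03) in heart numbers 3 and 4. The cause of each change was not tested. Of the members' alternative values for the number sets, 93 moved by less than 1 SD and 11 by more, and 0 turned sign. The SD is each gene's own, within genotype and number set, 2.60 for Bmp10 and 0.06 for Kcnj5. The shifts of Bmp10 from 2.85 to 1.38 and to 4.31 therefore count as less than 1 SD, and the tally does not show that its value is stable. Lists under other scalings and the search for genes low in WT 2 were added after seeing the data. Depth limits Sln in WT 3 (23 reads) and Bmp10 in WT 3 (8 reads).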

Other observations

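Bmp10 in WT heart number 2 was compared with all other genes, a search made after its value was seen. Of 11918 genes at 2 CPM or more in the 3 other heart libraries numbered 1 or 2, 5 were at least 3-fold lower in WT 2 than in each of those 3. Besides Bmp10 (3.12 CPM against 182.3, 372.2 and 338.8 CPM) they were Cd207, langerin of dendritic cells (1.14 against 4.39, 6.93 and 6.41 CPM), Aldh3b3 (0.533 against 2.12, 2.18 and 2.64 CPM), Adh6b (0.229 against 2.27, 2.72 and 2.02 CPM) and Gm12350 (0.152 against 3.73, 3.74 and 2.02 CPM). Bmp10 was the only one of the 5 above 7 CPM in any heart library. The list of other atrial genes was near its usual level in WT 2, with Nppa at 78.1%, Mybphl at 78.9% and Fgf12 at 96.6% of WT 1.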
